A study of Homo sapiens with 12 samples.

Results

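The genes of the cytosolic ribosomal proteins were followed in 2 prostate cancer cell lines treated with pentamidine. They were taken by symbol, as the RPL, RPS, RPLP and RPSA names of the ribosome's own proteins, where at least 3 libraries held at least 10 counts. Of 84 names, 83 met the minimum, out of 32077 genes in the count table, and RPL3L, a heart and muscle paralog, fell below it. The 83 members comprised 77 genes of the standard ribosome, 46 of the large and 31 of the small subunit, and 6 paralogs that are described apart: RPL7L1, RPL22L1, RPL26L1, RPL36AL, RPL39L and RPS27L. They lay on 21 chromosomes.

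PC3 and DU145 cells were kept for 48 h with pentamidine at 2.5 µmol/L, an aromatic diamidine used against protozoa and Pneumocystis, or with vehicle, and their poly(A) RNA was sequenced. The 4 groups, PC3 vehicle, PC3 pentamidine, DU145 vehicle and DU145 pentamidine, held 3 samples each, 12 in all. Library totals lay between 13514195 and 15131436 counts. The comparisons ask how each line's ribosomal protein mRNAs changed with the drug, whether the lines differed in this, and how they differed without it.

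Ribosomes carry the standard proteins in fixed proportions, and surplus copies are degraded, so cells make them in balance with ribosomal RNA. Their mRNAs belong to the TOP class: they start with a cytosine followed by a tract of pyrimidines, through which mTOR and the RNA-binding protein LARP1 control their translation and stability. RPL5 and RPL11 have a further role: outside the ribosome, together with the small ribosomal RNA of the large subunit, they bind the ubiquitin ligase MDM2 and restrain it.

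Levels are given in CPM, counts scaled to a common library size adjusted by the trimmed mean of M values (TMM), and changes as log2 fold changes with standard errors (SE) from edgeR's quasi-likelihood test, fitted over all genes. A gene passed when its p-value, adjusted by the Benjamini-Hochberg method over all genes tested, was below 0.05. The labels do not say whether the replicates were separate cultures, so the p-values measure the spread between samples. In bulk RNA of this kind, a change in the number of cells of a kind and a change in RNA per cell cannot be told apart.

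The labels were checked against marker genes. PC3 is known for a deletion in CTNNA1, which encodes alpha-catenin. The 6 libraries labelled PC3 held 6003 to 8545 counts of CTNNA1, above the 5533 to 5932 in those labelled DU145, which goes against that label. KRT8, an epithelial keratin, was counted 238 to 307 times in the PC3 libraries and 25835 to 38812 times in the DU145 libraries, and its partner KRT18 2125 to 3085 and 9962 to 13423 times. The epithelial adhesion genes EPCAM and CDH1 were almost absent, with 0 to 2 and 0 to 10 counts over the 12 libraries. The luminal prostate markers KLK3 and KLK2 reached at most 2 and 3 counts. The names PC3 and DU145 are therefore used as those of the labels.

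Markers of other cells were at or near 0. The 4 fibroblast genes COL1A1, COL3A1, DCN and LUM summed to between 7 and 41 counts per library, led by COL1A1 with up to 40 in DU145 and COL3A1 with up to 20 in PC3. The leukocyte genes PTPRC and CD14 summed to 1 to 8 counts, with PTPRC at 0 in 11 of the libraries. The endothelial genes PECAM1, CDH5 and VWF summed to 1 to 17 counts.

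The first replicate of PC3 vehicle stood apart from the other libraries in the ribosomal protein genes. Measured against the mean of the other 2 libraries of its group, the median of the 77 standard members was -0.23 on the log2 scale, and 67 of the 77 lay below that mean. In the other 11 libraries this median lay between -0.074 and 0.19, the latter in the third replicate of the same group. In the first replicate the shorter members were the lower ones: across the 77 genes, which are not independent replicates, Spearman's rho of this deviation with coding length was 0.616. Over all genes, the difference between 2 replicates divided by that expected from counting, as chi-square per degree of freedom, was 5.99 and 7.32 for the pairs with this library, 3.65 for the other pair of PC3 vehicle and at most 3.14 in the other groups. The main counts and medians that use it, and some of the members named, are given with and without it. Where no value without it is printed, the PC3 value is from all libraries.

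**Figure D1:**
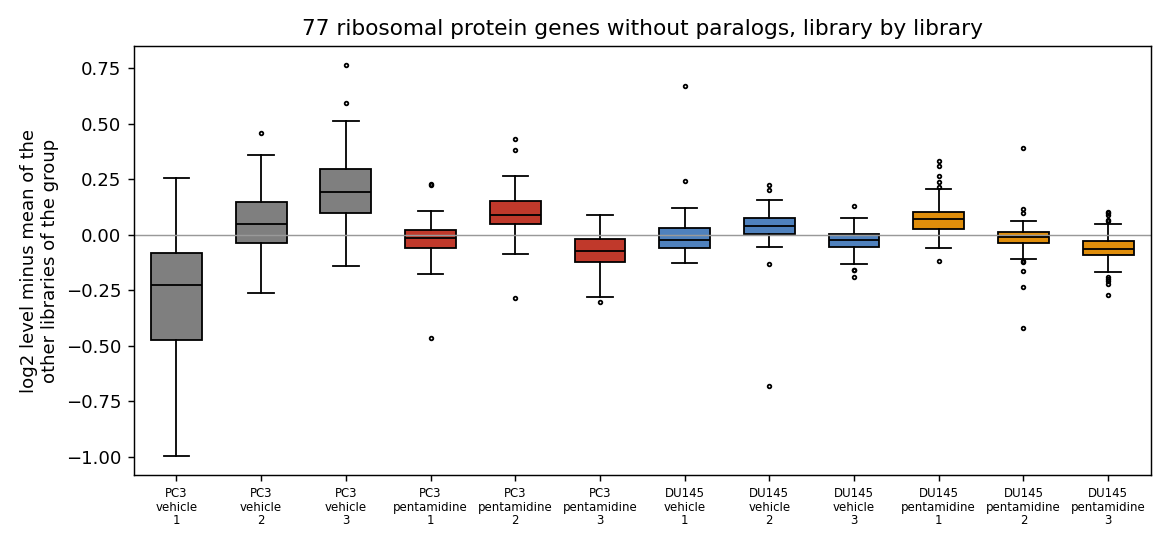
Deviation of the 77 ribosomal protein genes without paralogs in each library from the mean of the other libraries of its group (y axis, log2 of CPM), by library (x axis); boxes show the median and the quartiles, whiskers reach to 1.5 interquartile ranges, and dots are genes beyond them. The first replicate of PC3 vehicle has the lowest median, -0.23, and the widest box, and the third replicate of that group the highest median, 0.19.

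After pentamidine, a larger share of each library came from ribosomal protein genes in both lines. In PC3 vehicle, the 83 members took 4.54% (95% Wilson interval 4.53 to 4.55), 4.96% (4.95 to 4.97) and 5.31% (5.30 to 5.32) of all counts. In PC3 pentamidine they took 6.38% (6.37 to 6.39), 6.69% (6.67 to 6.70) and 6.27% (6.25 to 6.28). Every treated PC3 library lay above every PC3 vehicle library, and the lowest value was that of the first vehicle replicate. In DU145 the shares were 5.30% (5.28 to 5.31), 5.41% (5.396 to 5.42) and 5.27% (5.26 to 5.28) under vehicle. They were 6.79% (6.78 to 6.80), 6.62% (6.60 to 6.63) and 6.47% (6.45 to 6.48) under pentamidine, again with no overlap. The intervals cover counting error only.

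The group means were 4.94% ± 0.384 (SD, n = 3) and 6.44% ± 0.217 in PC3 and 5.33% ± 0.0733 and 6.62% ± 0.162 in DU145, ratios of 1.31 and 1.24. Without the first replicate, the PC3 vehicle mean was 5.13%. Both subunits rose alike: the counts of the large subunit divided by those of the small subunit averaged 1.59 and 1.58 in PC3 before and after the drug and 1.47 and 1.47 in DU145. The 6 paralogs together held 0.0532% and 0.0517% of counts in PC3 and 0.0545% and 0.0548% in DU145, so the larger share came from the standard members. Over the same libraries the share of mitochondria-encoded genes fell from a mean of 3.85% to 2.71% in PC3 and from 4.54% to 2.01% in DU145. With those genes left out of the total, the ribosomal share averaged 5.135% and 6.62% in PC3 and 5.58% and 6.76% in DU145, so it rose in both lines on that scale too. With library sizes free of those genes, the median log2 fold change of the members was 0.36 in PC3 and 0.22 in DU145, with 68 higher in each.

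**Figure D2:**
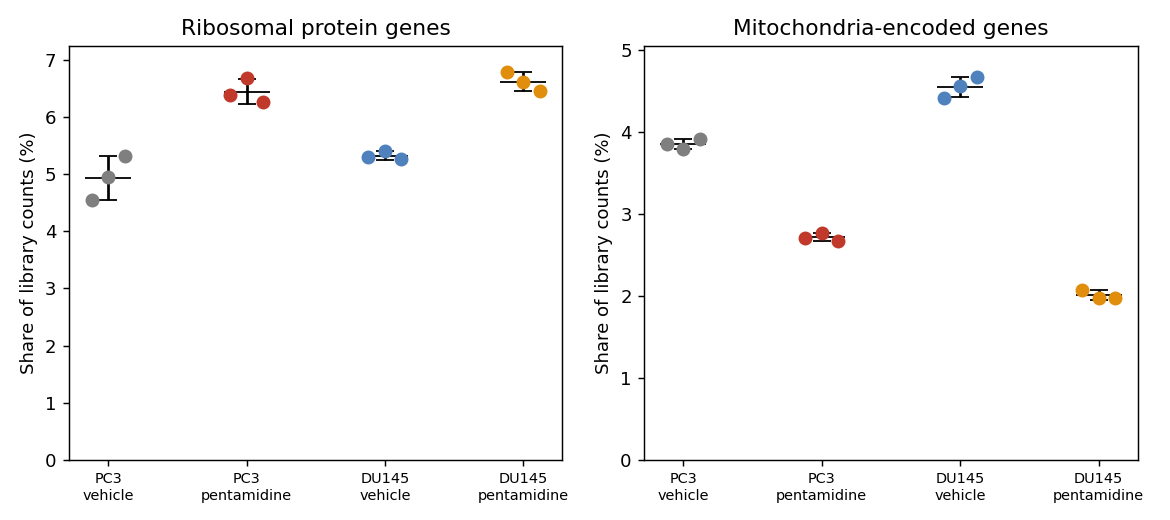
Share of each library's counts (y axis, percent) on the 83 ribosomal protein genes and on the mitochondria-encoded genes in the 4 groups (x axis); dots are libraries, and bars are the mean and SD of 3. The ribosomal share averages 4.94% and 6.44% in PC3 and 5.33% and 6.62% in DU145, and the mitochondrial share falls in both lines.

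In PC3, 68 of the 83 members were higher after pentamidine and 0 lower, where 21.7% of the 13861 genes tested were higher and 21.7% lower. At an unadjusted p below 0.05, 1 member was lower, and DESeq2 and limma each called 0 lower, with 53 and 68 higher. The median log2 fold change was 0.36 for the members, with quartiles of 0.24 and 0.47, and 0.0046 for all genes tested. The rises were small, since 0 members changed by more than 1 on the log2 scale in either direction, against 3.44% of genes higher and 1.31% lower under that rule. By subunit, 41 of 46 large subunit genes and 26 of 31 small subunit genes rose, with medians of 0.36 in both. In 66 of the 83 members all treated libraries lay above all vehicle libraries, as in 26.1% of all genes.

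Without the first vehicle replicate, 63 members rose and 4 fell in PC3, beside 21.9% and 21.7% of the 14174 genes then tested, and the median was 0.28. All 63 were among the 68, with 36 of 46 in the large subunit and 26 of 31 in the small subunit. The 5 that no longer passed were RPL18, RPL21, RPL23A, RPL35 and RPL41, and the 4 that then fell were RPS26 and the paralogs RPL36AL, RPL39L and RPS27L. The 22 standard members with a coding sequence under 400 bases had a median of 0.41 with all libraries and 0.28 without that replicate. The 55 longer ones had medians of 0.35 and 0.28, so the larger rise of the short members was not present without it.

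RPL12, at the base of the stalk on which translation factors act, had the largest fold change in PC3. Its level was 833, 829.9 and 886 CPM in the vehicle libraries and 1386, 1463 and 1400 in the treated ones. All treated libraries were far above all vehicle libraries, and the first vehicle replicate did not stand apart for this gene. The log2 fold change was 0.74 ± 0.048 (SE, adjusted p = 1.49e-09), a 1.67-fold rise, and 0.72 without that replicate. RPLP0, the stalk protein bound next to RPL12, rose from 1808, 1761 and 1906 to 2470, 2578 and 2637, by 0.49 ± 0.047. Again no library of 1 group reached the other.

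RPLP1 and RPLP2, the acidic proteins that extend the stalk, were measured less evenly. RPLP1 stood at 615, 930.3 and 1142 CPM under vehicle and 1292, 1430 and 1239 under pentamidine. The groups did not overlap, but the first vehicle replicate was much the lowest, and the log2 fold change of 0.56 ± 0.14 was 0.35 without it. RPLP2 gave 0.33 and, without it, 0.21. DESeq2 called neither of them in PC3.

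In the small subunit, RPS18, a protein of the subunit's head, rose in PC3 from 979, 1043 and 1214 to 1609, 1834 and 1694 CPM. The treated libraries lay clear above, and the log2 fold change was 0.67 ± 0.070 (adjusted p = 6.39e-07), or 0.60 without the first vehicle replicate. RPS12, in the beak of the subunit, went from 517, 674 and 776 to 983, 1120 and 958, a log2 fold change of 0.64 ± 0.10, or 0.49 without the first vehicle replicate. RPS27, a zinc finger protein, went from 245, 326 and 348 to 466, 521 and 438. For both genes the groups were separate and that replicate was the lowest of the 6. The change of RPS27 was 0.64 ± 0.097, and 0.49 without it. RPL37, a short zinc finger protein of the large subunit, completed the largest 5 with 443, 627 and 726 before and 898, 1002 and 843 after. The first vehicle replicate was again the lowest, and the log2 fold change was 0.62 ± 0.12, against 0.43 without it.

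In DU145, 68 of the 83 members were higher after pentamidine and 2 lower, where 17.2% of the 14313 genes tested were higher and 16.8% lower. The median log2 fold change was 0.22, with quartiles of 0.17 and 0.28, against 0.0085 for all genes. Under the rule with a log2 change above 1, 0 members passed in either direction, beside 1.37% and 0.657% of genes. Of the large subunit genes 40 of 46 rose and of the small subunit genes 28 of 31. In 71 of 83 members all treated libraries were above all vehicle libraries, as in 21.9% of all genes. The members' medians stayed above 0 in both lines under each of the 6 scalings tried, at 0.34 to 0.36 in PC3 and 0.21 to 0.27 in DU145.

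RPL13A, a large subunit protein that also serves in a complex that represses inflammatory mRNAs, rose the most in DU145. It went from 1204, 1255 and 1252 to 1802, 1740 and 1702 CPM. The libraries of each group lay close together and far from the other group, and the log2 fold change was 0.50 ± 0.029 (adjusted p = 7.77e-21). In PC3 its change was 0.53 ± 0.052, nearly the same. RPS2, at the small subunit's entry for mRNA, rose in DU145 from 2561, 2590 and 2709 to 3406, 3562 and 3493, by 0.42 ± 0.028. The groups were well apart, and PC3 gave 0.42 ± 0.060. RPL12 rose from 767, 750.0 and 752 to 1012, 997 and 1004, by 0.41 ± 0.029, and its 3 treated libraries lay close together.

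RPL13, a large subunit protein mutated in a skeletal dysplasia, went from 1381, 1461 and 1485 to 1931, 1899 and 1857 CPM in DU145, a log2 change of 0.40 ± 0.029. The groups did not overlap. RPL3, which reaches towards the centre where peptide bonds form, went from 1447, 1420 and 1383 to 1890, 1825 and 1809, by 0.38 ± 0.028. Its treated libraries were all above its vehicle libraries in PC3 too, where it rose by 0.59 ± 0.048.

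Of the 68 members higher in each line, 65 were the same genes, 95.6% of each list. RPL21, RPL22L1 and RPL39 passed in PC3 alone and RPL24, RPS15 and RPS28 in DU145 alone, but no member of these 6 passed the test of the difference between lines with all libraries. Across the 83 members, the log2 fold changes of the lines, which share no samples, had a Pearson r of 0.716 and a Spearman rho of 0.682, given as a description since genes are not independent replicates. Across the 13125 genes tested in both lines r was 0.547.

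**Figure D3:**
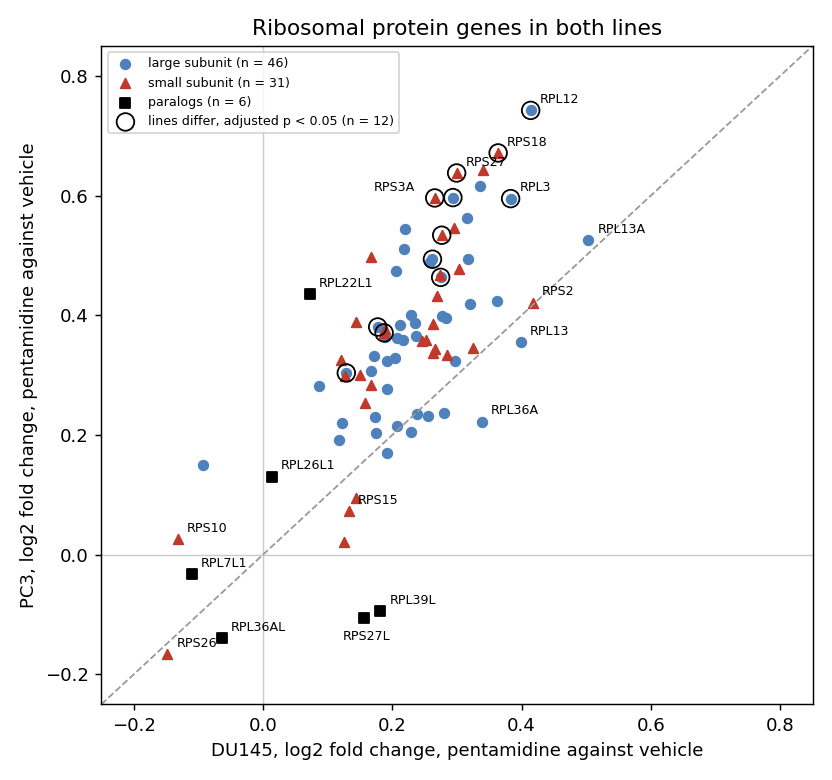
Log2 fold change after pentamidine of the 83 ribosomal protein genes in DU145 (x axis) and PC3 (y axis), marked by subunit, with paralogs as squares and rings around the 12 genes whose change differed between lines; the dashed line marks equal change. In 69 of 83 genes the change is larger in PC3, and RPS26 and most paralogs lie near or below 0.

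The drug's effect was larger in PC3 for part of the members. The test of the difference between responses called 12 members higher and 0 lower, beside 10.2% and 10.3% of the 15226 genes tested, so the number of calls was near the background and all were in 1 direction. Scaling by library size alone shifted members and all genes alike, to medians of 0.074 and -0.077, and gave 6 higher and 1 lower, and fitting without a filter on low counts gave 36 higher. At an unadjusted p below 0.05 the counts were 27 and 1, and DESeq2 and limma gave 13 and 12 higher and 0 lower each. The median difference was 0.14 for members and -0.0091 for all genes, and PC3 had the larger change in 69 of 83.

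This difference depended on single libraries. Without the first PC3 vehicle replicate, 12 members were higher and 3 lower (RPL24, RPL39L and RPS27L), beside 10.8% and 10.1% of genes, 11 of the 12 being the same genes, with a median of 0.075 and PC3 larger in 58 of 83. Without the third PC3 vehicle replicate, 39 members were higher and the median was 0.21. The count was 7 without the second replicate of PC3 pentamidine, DU145 vehicle or DU145 pentamidine, or without the third replicate of DU145 pentamidine.

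Among the 12, RPL12 differed by 0.33 ± 0.052 (adjusted p = 2.38e-05), RPS18 by 0.31 ± 0.078 (0.0049) and RPL37A, a zinc finger protein of the large subunit, by 0.30 ± 0.076 (0.00465). These 3, with RPS4X (difference of 0.26), RPLP0 (0.23) and RPL3 (0.21), passed under each of the 22 alternative settings and left-out libraries. The 6 differences were, in this order, 0.32, 0.25, 0.23, 0.20, 0.23 and 0.23 without the first PC3 vehicle replicate. RPL37A stood at 405, 498 and 470.0 CPM in PC3 vehicle and 668, 731 and 670.4 in PC3 pentamidine. In DU145 it stood at 495, 509.8 and 496 and 629.7, 627 and 577. The first PC3 vehicle replicate was the lowest of all, and the treated PC3 libraries were above the treated DU145 ones.

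The largest differences among the called members were less firm. RPS27 differed by 0.34 ± 0.11 (adjusted p = 0.0289) and RPS3A, on the small subunit's platform, by 0.33 ± 0.10 (0.0196). Without the first PC3 vehicle replicate they were 0.21 and 0.21. Neither passed with DESeq2, with scaling by library size, or without the second replicate of PC3 pentamidine, DU145 vehicle or DU145 pentamidine, or the third replicate of DU145 pentamidine. RPS3A went from 155, 199 and 213 to 276, 299 and 279 in PC3 and from 211, 226 and 211 to 279, 245 and 253 in DU145. The first PC3 vehicle replicate was the lowest of all 12 libraries for this gene.

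Smaller differences were those of RPL7 (0.20), RPL10A of the stalk near the exit for tRNA (0.19) and RPL14 (0.17), of which RPL14 lost the call in 11 of the 22 alternatives. They were 0.23, 0.15 and 0.24 without the first PC3 vehicle replicate.

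Some members with known further roles are given singly. RPL5 and RPL11, which bind MDM2, rose in PC3 from 1084, 1223 and 1317 to 1512, 1621 and 1500 and from 838, 1009 and 1018 to 1216, 1340 and 1171. For both, every treated library lay above every vehicle library, with log2 changes of 0.36 ± 0.063 and 0.38 ± 0.070, or 0.28 and 0.29 without the first vehicle replicate. In DU145 the changes were 0.22 ± 0.030 and 0.21 ± 0.032. RPS6, the substrate of the S6 kinases, rose by 0.35 in PC3 and 0.33 in DU145. RPS3, which lines the mRNA entry and also takes part in DNA repair, rose by 0.48 and 0.30. RPS19, the gene most often mutated in Diamond-Blackfan anaemia, rose by 0.33 and 0.29, and RPL10, needed for a late step of large subunit maturation, by 0.49 and 0.32. RPSA, also known as a laminin receptor precursor, rose by 0.36 and 0.25. RPS27A, made as a fusion with ubiquitin, rose by 0.32 in PC3, 0.20 without the first vehicle replicate and not called by DESeq2. In DU145 it rose by 0.12, a call lost with all 12 samples in 1 fit and without the first treated replicate. RPL41, the smallest of the proteins, rose by 0.20 and 0.18, and its PC3 call was lost without the first vehicle replicate or without the first or second treated one.

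RPS26 was the exception among the standard members. This protein lies where the mRNA leaves the small subunit and contacts the bases before the start codon. Its level in DU145 was 76.7, 75.3 and 79.8 CPM under vehicle and 67.9, 69.1 and 71.6 under pentamidine. All treated libraries were below all vehicle libraries, and the log2 fold change was -0.15 ± 0.048 (adjusted p = 0.0139). That call was lost with scaling by library size, with all 12 samples in 1 fit, and without the third vehicle or the first treated replicate, the direction staying the same. In PC3 the values were 61.7, 75 and 79.4 and 66.0, 62.0 and 63.9. The first vehicle replicate lay below the treated ones and the other 2 above them, so the groups overlapped, and the change of -0.17 ± 0.081 did not pass with all libraries (adjusted p = 0.107). Without that replicate it was -0.27 and passed, as it did with all 12 samples in 1 fit.

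The rise seen in the standard members was not seen in the 6 paralogs as a group. In PC3, 1 of the 6 passed as higher and in DU145 1 as lower, near the 21.7% and 16.8% of all genes, with median log2 changes of -0.064 and 0.043. Without the first PC3 vehicle replicate, 1 was higher and 3 were lower in PC3, with a median of -0.125. The exception in PC3 was RPL22L1, the counterpart of RPL22. It went from 13.4, 17.8 and 15.8 to 19.97, 21.9 and 21.7 CPM, with no overlap, by 0.44 ± 0.11 (adjusted p = 0.00356), or 0.33 without the first vehicle replicate. In DU145 it stood at 22.4, 29.2 and 25.2 and 28.6, 25.9 and 26.2, overlapping, with a change of 0.073 ± 0.082 that did not pass. The difference between the lines, 0.36 ± 0.14, did not pass either (adjusted p = 0.0728), and was 0.26 without that replicate. RPL22 itself rose by 0.40 in PC3 and 0.23 in DU145, in each line without overlap.

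RPS27L, the paralog of RPS27, was at 35.3, 45.1 and 45.4 CPM in PC3 vehicle and 38.3, 40.2 and 38.0 in PC3 pentamidine. The second and the third vehicle replicate were above the treated libraries and the first was below them. The log2 change was -0.11 ± 0.090 with all libraries and did not pass, and -0.22 without the first, which passed. In DU145 the levels were 31.1, 33.0 and 31.4 and 36.8, 36.0 and 33.3, apart and higher after the drug, but the change of 0.16 ± 0.068 did not pass (adjusted p = 0.0685). RPS27L passed there with scaling by library size and without the third treated replicate.

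RPL39L, a paralog of RPL39 best known from the testis, behaved alike: 16.3, 24.98 and 25.9 and 20.8, 21.6 and 20.2 in PC3, and 21.4, 20.7 and 20.4 and 23.8, 23.3 and 23.5 in DU145. The PC3 groups overlapped through the first vehicle replicate, and the DU145 groups did not overlap. The changes were -0.094 ± 0.13 in PC3, -0.28 without that replicate, and 0.18 ± 0.082 in DU145. Only the value without the replicate passed, apart from DU145 scaled by library size.

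RPL7L1, a nucleolar relative of RPL7, stood in PC3 at 239.6, 239.9 and 240.4 and 237, 232 and 233. The treated libraries were all slightly below the vehicle ones, and the change of -0.033 ± 0.046 did not pass. In DU145 it went from 219, 221 and 219 to 191, 211 and 206, by -0.11 ± 0.037 (adjusted p = 0.0154). The treated DU145 libraries were all below the vehicle ones, though the call was lost with scaling by library size and without the first treated replicate, which was the lowest. RPL36AL, which encodes nearly the same protein as RPL36A, changed by -0.14 ± 0.065 in PC3 and -0.063 ± 0.038 in DU145, and RPL26L1, the relative of RPL26, by 0.13 ± 0.072 and 0.014 ± 0.055. None of these 4 values passed, and RPL36AL passed in PC3 without the first vehicle replicate (-0.21) and with all 12 samples in 1 fit.

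**Figure D4:**
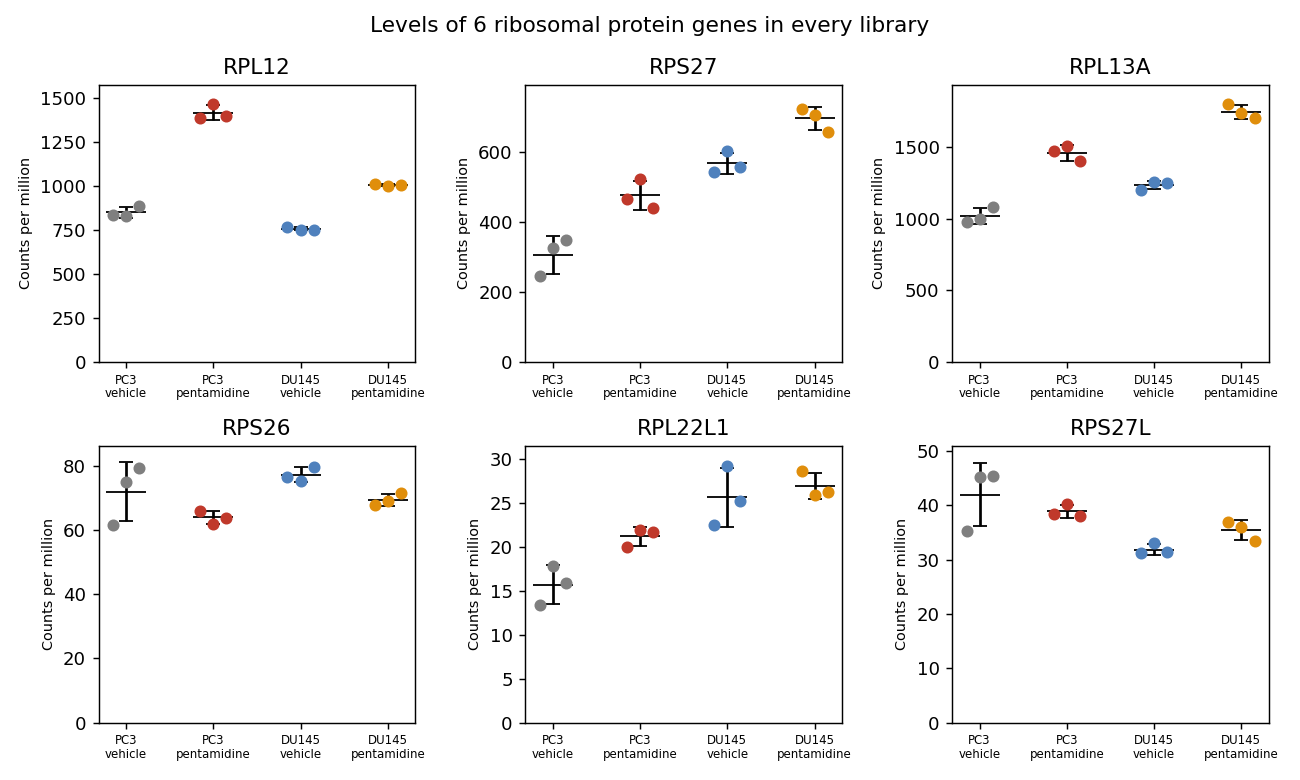
CPM (y axis, from 0) of 3 members with large rises, of RPS26 and of the paralogs RPL22L1 and RPS27L in the 4 groups (x axis); dots are libraries and bars the mean and SD of 3. RPL12, RPS27 and RPL13A are higher in every treated library of each line, RPS26 is lower in every treated DU145 library, and RPL22L1 is higher in every treated PC3 library.

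Without the drug, calls among the members were about as frequent as among all genes, but more of them were towards lower levels in PC3. Of the 83 members 17 were higher and 40 lower in PC3 vehicle than in DU145 vehicle, beside 31.5% and 33.8% of the 14394 genes tested. The members' median difference was -0.15, with quartiles of -0.47 and 0.065, and that of all genes -0.0105. With a log2 difference above 1, 1 member was higher (RPL35) and 2 lower (RPS28 and RPS29), beside 7.52% and 11.7% of genes. Without the first PC3 vehicle replicate the counts were 22 and 39, beside 31.9% and 33.8% of genes, and the median was -0.082. Without the third PC3 vehicle replicate the median was -0.24, and without the first or the third DU145 vehicle replicate 11 and 10 members were higher.

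RPL35, at the exit of the nascent chain's tunnel, was the member most in excess in PC3. Its vehicle levels were 666, 836 and 884 CPM in PC3 and 369, 403 and 387 in DU145. All PC3 libraries were far above all DU145 libraries, and the log2 difference was 1.02 ± 0.080 (adjusted p = 9.64e-09), or 1.14 without the first replicate. The paralog RPL26L1 was higher in PC3 by 0.51 ± 0.064, RPL27, one of the Diamond-Blackfan anaemia genes, by 0.48 ± 0.075, RPL39 of the exit tunnel by 0.48 ± 0.11 and RPS15A, another of those genes, by 0.48 ± 0.13.

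On the lower side, RPS29, a zinc finger protein, stood at 56.6, 99.7 and 127 CPM in PC3 and 197, 215 and 217 in DU145. The first PC3 replicate was the lowest, and all 3 were below every DU145 library. The log2 difference was -1.18 ± 0.17, and -0.90 without that replicate. RPL37 and RPS27 were lower in PC3 too, with differences of -0.98 ± 0.11 and -0.91 ± 0.093, or -0.80 and -0.76 without that replicate. RPSA, at 954, 1035 and 1061 in PC3 and 1754, 1851 and 1749 in DU145, differed by -0.84 ± 0.049. Its libraries were tight within each line. RPS19 had a similar difference, -0.81 ± 0.057.

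The paralogs differed in both directions: RPL26L1 (0.51), RPS27L (0.37) and RPL7L1 (0.10) were higher in PC3, RPL22L1 (-0.73) and RPL36AL (-0.74) lower, and RPL39L (0.078) did not pass, though it did without the first PC3 vehicle replicate (0.27). RPL7L1 lost this call in 7 of 16 alternatives, among them DESeq2.

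Ribosomal protein genes have many processed pseudogenes, intronless copies of the mRNA that short reads may match equally well. The count table held 494 named after the members. For 7 members, RPL9, RPL21, RPL23A, RPL39, RPL41, RPS10 and RPS28, more than 50% of the summed counts lay on these copies. For 9 members, among them RPL17, RPL22, RPL26, RPL36A, RPS10 and RPS15A, more than 50% of the coding bases overlapped exons of another annotated gene. The other 68 members had neither, and of these 60 rose in PC3 and 61 rose and 2 fell in DU145. In the difference between lines, all 12 calls were among the 68.

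RPS28, a small subunit protein near the mRNA exit, showed the largest difference between the lines and the largest effect of its copy. Under vehicle it was at 7.59, 11.3 and 10.3 CPM in PC3 and 67.9, 66.4 and 62.0 in DU145. Every PC3 library was well below every DU145 library, with a log2 difference of -2.77 ± 0.11 (adjusted p = 1.13e-12). The pseudogene RPS28P7 held on average 3529 counts in PC3 vehicle and 3268 in DU145 vehicle, 96.1% and 78.0% of the sum. When the counts of gene and copy were summed, an alternative chosen after seeing the data, the difference was -0.27. Which copy the reads came from was not tested.

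Summing left the counts of calls close. With the copies' counts added to every member, 70 members rose in PC3, and 71 rose and 2 fell in DU145. RPS10, at 1.63, 2.14 and 1.99 CPM in PC3 vehicle, had changes of 0.026 and -0.13 on its own counts and 0.56 and 0.25 when summed. RPL9 had 0.15 and -0.093 on its own and 0.37 and 0.28 when summed. RPL23A, at the tunnel exit, went the other way, from 0.32 and 0.30 to 0.15 and 0.099. For RPS10, 92.1% of coding bases also lay in the readthrough gene RPS10-NUDT3, and for RPL17 all of them, 100%, in RPL17-C18orf32. Neither member was called in either line.

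**Figure D5:**
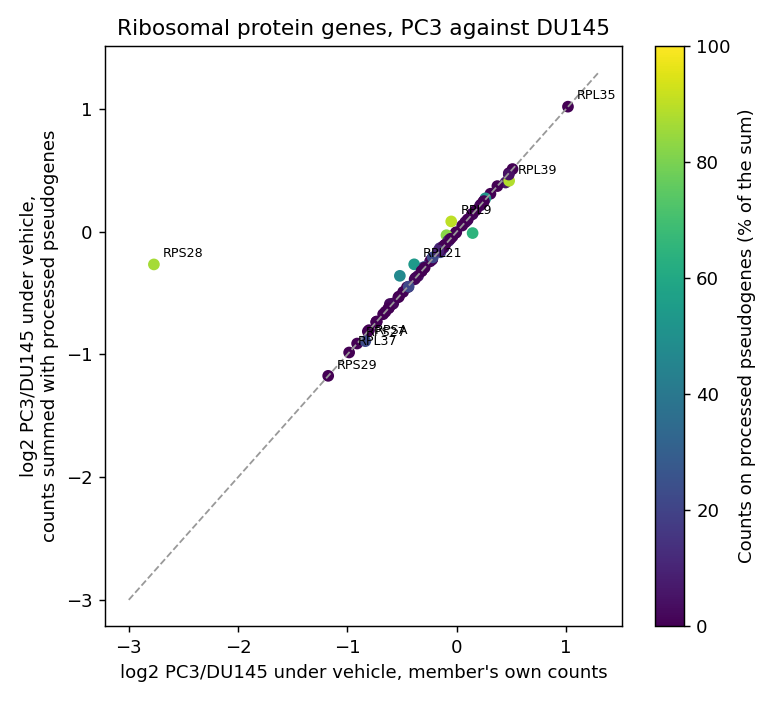
Log2 difference between PC3 and DU145 under vehicle for the 83 members, from the member's own counts (x axis) and from counts summed with its processed pseudogenes (y axis), coloured by the percent of the summed counts on pseudogenes; the dashed line marks equality. RPS28 moves from -2.77 to -0.27, and the other genes stay near the line.

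Levels of different members were compared per kilobase, since longer mRNAs give more fragments. Per kilobase of the longest transcript, RPS2 was the highest in both lines, with 2570 ± 268 CPM per kilobase (SD, n = 3) in PC3 vehicle and 2660 ± 79.6 in DU145 vehicle. In PC3 vehicle it was followed by RPS18 with 1760 ± 198 and RPL35 with 1750 ± 251 per kilobase, which did not differ beyond their spread. In DU145 vehicle RPS18 had 1820 ± 35.5 and RPS16 1610 ± 35.3. The lowest were RPS10 with 2.45 ± 0.336 in PC3 and 2.57 ± 0.155 in DU145, RPS27L with 6.52 ± 0.893 and 4.95 ± 0.155, RPL22L1 with 7.16 ± 1.00 in PC3 and RPL36A with 9.55 ± 2.93 in DU145.

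The order depended on the length used, because the longest transcript of some members is far longer than the coding sequence. Per kilobase of coding sequence, RPS2 (2870 ± 300), RPL13 (2700 ± 191) and RPLP1 (2600 ± 769) led in PC3 vehicle, within their spread. In DU145 vehicle RPL37 led with 3960 ± 98.3, ahead of RPLP1 (3130 ± 92.5) and RPS2 (2970 ± 88.9). RPS10, RPL17 and RPL36A were the lowest in both lines on this scale, and all 3 share most of their coding bases with another gene. By raw counts, RPS2 held 5.18% of the members' counts in PC3 vehicle and RPL4 4.91% in DU145 vehicle, and the 10 most counted members held 33.7% and 32.3%.

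The start of transcription was examined because the TOP class is defined there. RefSeq promoter windows of the build GRCh38.p14 were matched for 67 of the 83 members, 83 windows in all. At the annotated start base, on the transcribed strand, a C followed by at least 4 pyrimidines (C or T) stood in 59.7% of the 77 windows of standard members. It stood in 4.07% of all 35116 promoters, and of the 85 of mitochondrial ribosomal proteins 7.06%. Counted by gene, 46 of 62 standard members and 1 of 5 paralogs had at least 1 such window. A pyrimidine run of at least 8 bases over the start was found in 58.4% of the standard windows and 4.72% of all.

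The windows of members with large rises, of the exceptions and of the paralog pairs are shown for comparison. Each is written 5′ to 3′ on the transcribed strand, with 15 bases before the annotated start base and 15 from it on, and capitals mark the pyrimidine run that covers the start base. They lie at chr9:127451392-127451421 (RPL12, minus strand), chr6:33272060-33272089 (RPS18, plus), chr6:132814554-132814583 (RPS12, plus), chr1:153990747-153990776 (RPS27, plus), chr15:63157463-63157492 (RPS27L, minus), chr19:49487593-49487622 (RPL13A, plus), chr1:6199581-6199610 (RPL22, minus), chr3:170870181-170870210 (RPL22L1, minus), chrX:101390996-101391025 (RPL36A, plus), chr14:49620612-49620641 (RPL36AL, minus), chr12:56041903-56041932 (RPS26, plus) and chr6:42879601-42879630 (RPL7L1, plus).
RPL12: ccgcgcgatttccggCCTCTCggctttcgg
RPS18: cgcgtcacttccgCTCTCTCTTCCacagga
RPS12: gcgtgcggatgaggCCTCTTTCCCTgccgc
RPS27: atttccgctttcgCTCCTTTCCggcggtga
RPL13A: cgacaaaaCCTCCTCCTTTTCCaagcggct
RPL22: tagttcgctcaCCTCCCTTTCTaactccgc
RPL22L1: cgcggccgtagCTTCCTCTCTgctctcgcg
RPL36A: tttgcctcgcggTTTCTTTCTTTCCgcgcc
RPL36AL: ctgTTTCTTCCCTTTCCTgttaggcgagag
RPS27L: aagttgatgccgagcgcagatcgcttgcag
RPS26: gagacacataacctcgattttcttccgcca
RPL7L1: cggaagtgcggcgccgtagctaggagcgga

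The runs covering the start were 6 to 14 bases long in the 5 members with large rises, and 11 and 10 bases in RPL22 and its paralog RPL22L1, the paralog that rose in PC3. RPS27L, RPS26 and RPL7L1 had a purine at the annotated start base and thus no run. A run did not always go with a rise: those of RPL36A and its paralog RPL36AL were 13 and 15 bases long, and neither gene passed as higher in either line. The run of RPL36AL lay mostly before the start base, and too few pyrimidines followed that base for the motif of a C and at least 4 pyrimidines. RPL36A changed by 0.22 ± 0.12 in PC3 and 0.34 ± 0.15 in DU145, and in DU145 it passed in 4 of 17 alternatives: scaling by library size, the replicate block, and without the first vehicle or the second treated replicate. Across the standard members, those with the motif had median log2 changes of 0.38 in PC3 and 0.25 in DU145, with 42 and 41 of 46 higher, all with the first PC3 vehicle replicate included. The 16 without it had medians of 0.32 and 0.18, with 11 and 13 higher and, in DU145, RPS26 lower. A missing run says only that these letters are not at the annotated start, since cells may start elsewhere.

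Other genes of the ribosome and of the TOP class, listed apart from the members, moved alike. RACK1, the scaffold protein of the small subunit's head, was counted 20721, 23494 and 23451 times in PC3 vehicle and 33344, 33460 and 33114 times in PC3 pentamidine. All treated libraries were higher, and it rose by 0.57 on the log2 scale, against 0.30 in DU145. FAU, the source of a small subunit protein, rose by 0.26 in DU145, and its 0.29 in PC3 did not pass. Of 12 other TOP genes 11 rose in each line, beside 21.7% and 17.2% of all genes, with medians of 0.39 and 0.27. EEF2, the translocation factor, rose by 0.61 and 0.31, the tRNA carrier EEF1A1 by 0.51 and 0.29 and the poly(A)-binding protein PABPC1 by 0.54 and 0.28, while EEF1D stayed at 0.017 and 0.0115.

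The chaperones and importers that escort new ribosomal proteins did not share the rise. Of 13, 6 fell, 1 rose and 6 were not called in PC3, with a median of -0.16, where 21.7% of all genes fell. In DU145 9 fell and 4 were not called, with a median of -0.13, where 16.8% of all genes fell. GRWD1, the chaperone of RPL3, had 2042, 1997 and 1853 counts in PC3 vehicle and 1302, 1194 and 1400 in PC3 pentamidine, a log2 change of -0.59, while RPL3 rose. In DU145 GRWD1 changed by -0.33. BCCIP, the chaperone of RPL23, changed by -0.32 and -0.21, and the importer IPO9 by -0.41 in PC3 and, not passing, by -0.061 in DU145. The importer TNPO1 rose by 0.17 in PC3 and changed by -0.13 in DU145.

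Partners of RPL5 and RPL11 moved in both directions. CDKN1A, a cell cycle inhibitor under the control of their pathway, rose by 0.89 in PC3 and 0.37 in DU145. RRS1, which helps to place RPL5 and RPL11 in the large subunit, changed by -0.20 and -0.21. MDM2 changed by -0.14 in PC3, not passing, and by -0.16 in DU145.

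Of the 12 genes that control TOP mRNAs, 3 rose and 5 fell in PC3, and 1 rose and 5 fell in DU145. Over all genes, 21.7% rose and 21.7% fell in PC3, and 17.2% and 16.8% in DU145. Whether the list differed from these shares was not tested. EIF4EBP1, the mTOR target that restrains the cap-binding protein, had 1432, 1505 and 1414 counts in PC3 vehicle and 3370, 3115 and 3226 in PC3 pentamidine. The treated libraries were more than doubled, with log2 changes of 1.16 in PC3 and 0.76 in DU145. Its relative EIF4EBP2 changed by -0.51 in PC3 and, not passing, by -0.092 in DU145. EIF4E, the cap-binding protein itself, changed by -0.51 and -0.29, and RPS6KB1, the kinase of RPS6, by -0.34 and -0.14. LARP1 rose by 0.14 in PC3, and its 0.059 in DU145 did not pass. Of 5 transcription factors of ribosomal protein genes, 2 fell in PC3, GABPA by 0.18 and YY1 by 0.33 on the log2 scale, and all 5 missed the threshold in DU145. MYC had changes of 0.097 and -0.069. Of 15 genes of ribosome surveillance, 5 rose and 4 fell in PC3 and 2 rose and 4 fell in DU145, beside the same shares of all genes. Without the first PC3 vehicle replicate, the PC3 counts of these lists shifted by at most 1 gene in each direction.

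The proteins of the mitochondrial ribosome, encoded in the nucleus, served as the nearest comparison. In PC3 5 of 77 were higher (6.49%) and 18 lower (23.4%), with a median of -0.077, beside 21.7% of all genes in each direction. In DU145 9 of 78 were higher (11.5%) and 18 lower (23.1%), with a median of -0.013, beside 17.2% and 16.8%. The shares of higher calls were below those of all genes, and the share of lower calls in PC3 was near theirs. These differences from all genes were not tested. Without the first PC3 vehicle replicate the PC3 median was -0.16 and 35 were lower, 45.5% beside 21.7%. The difference between lines called 0 of them higher and 7 lower (8.97%), near the 10.3% of all genes lower, where 10.2% were higher. Without that replicate 14 were lower (17.9%), beside 10.1%. At an unadjusted p below 0.05, 1 was higher, and DESeq2 and limma each called 0 higher, with 3 and 6 lower. Their summed share of counts lay between 0.474% and 0.538% in all 12 libraries.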

How the data were processed

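The count table deposited by the authors held raw read counts per gene. Their notes name HISAT2 2.1.0 for alignment to GRCh38 and DESeq 1.18.1 for testing, but not the counting program, the annotation or strandedness. All 12 columns were assigned to a group. The table had 33639 entries. The 44 without an identifier were left out. Entries that repeated both a name and all of its counts were dropped. Those sharing only a name were kept apart, which left 32077 genes. The authors' comparison tables and a table named for FPKM, whose columns hold counts scaled to the library total, were not used.

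Each comparison was fitted with edgeR 4.0.16 in R 4.3.3, with filterByExpr at a minimum count of 10, TMM scaling and the quasi-likelihood test with Benjamini-Hochberg adjustment. Alternatives used DESeq2 1.42.0 and limma 3.58.1. Processed pseudogenes were taken from the count table by name, as a member's symbol followed by P and a number. Their kind was not checked against an annotation. Lengths and exon overlaps came from GENCODE release 29. Python 3.11.15, pandas 2.3.3, scipy 1.17.1 and matplotlib 3.10.9 made the summaries and plots. The members and lists were chosen with earlier results of these data known. The named members are those with the largest changes, those that differed between lines, the paralogs, the exceptions to the common direction and those with a known further role. RPL10L and EEF1G were not analysed here, and the results of a few other genes are not reported here.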

Additional observations from a re-analysis of the deposited data

Results flagged for a closer look

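The test of the difference between the lines singled out 12 ribosomal protein genes whose log2 change after pentamidine was larger in PC3 than in DU145. That is near the background, since 10.2% of all 15226 genes tested were called so, and the number was 7 to 39 when 1 library was left out. Among them, the differences were 0.34 for RPS27, 0.33 for RPS3A, 0.33 for RPL12, 0.31 for RPS18, 0.30 for RPL37A, 0.26 for RPS4X, 0.23 for RPLP0, 0.21 for RPL3, 0.20 for RPL7, 0.19 for RPL10A and 0.17 for RPL14.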

How the results depend on the processing

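Of 272 counts, medians, shares and levels under other settings or without 1 library, 239 stayed near the reported value and 33 did not. Near means within 1.5 times for a count and within 1 SD between replicates for the others, so values taken as near could still move: DESeq2 called 53 members higher in PC3, and all 12 samples in 1 fit gave 56 higher in DU145. Scaling by library size gave medians of 0.074 for the difference and -0.073 for the vehicle comparison, where those of all genes moved alike, to -0.077 and 0.070. Of 1456 calls of single members, 1370 stayed, 86 were lost, gained or, where not called, changed sign, and 0 called changes turned direction. The cause of the low first PC3 vehicle replicate was not tested.

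Scaling by library size alone gave a DU145 median of 0.27 with 0 members lower, and 6 higher and 1 lower in the difference between lines. With no filter the difference called 36. All 12 samples in 1 fit gave 2 members lower in PC3 and 1 lower in DU145. At an adjusted p below 0.01, 0 members were lower in DU145 and 10 were higher in the vehicle comparison. With a log2 change above 1 as a further condition, 0 were higher in PC3, 0 higher and 0 lower in DU145, and 1 was higher and 2 were lower in the vehicle comparison.

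Leaving out 1 library at a time gave 58 to 69 members higher and 0 to 4 lower in PC3, 67 to 69 higher and 0 to 2 lower in DU145, 7 to 39 higher and 0 to 3 lower in the difference, and 10 to 22 higher and 36 to 52 lower in the vehicle comparison. The medians were 0.28 to 0.42, 0.19 to 0.24, 0.075 to 0.21 and -0.24 to -0.082.

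The share of counts was 6.85% in PC3 pentamidine, 5.68% in DU145 vehicle and 7.07% in DU145 pentamidine with processed pseudogenes added, and, without mitochondria-encoded genes in the total, 5.135% and 6.62% in PC3 and 5.58% and 6.76% in DU145 under vehicle and pentamidine. Per kilobase of coding sequence, RPS2 had 2870 CPM in PC3 vehicle and 2970 in DU145 vehicle, and RPS10 had 3.85 and 4.04. The coding length and the fits on counts summed with pseudogenes were alternatives chosen after seeing the data. The shares with pseudogenes added were planned.

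With the replicate number as a replicate block, 69 members were higher in PC3, 69 in DU145 and 14 in the difference. Deviations of equally numbered samples had Pearson r of -0.0182, 0.0448 and -0.156 in PC3 and -0.0136, 0.00224 and 0.00247 in DU145. Differently numbered samples had r between -0.151 and 0.169 in PC3 and between -0.0242 and 0.0217 in DU145. No pairing by number was seen, but so few pairs cannot settle whether equally numbered samples belong together.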
